A study of Mus musculus with 18 samples.

Results

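*Slpi*, *Emp2*, and *Evc* were followed in B cells of the spleen and of the Peyer's patches (PPs), the lymphoid follicles of the small intestine. They are 3 of the 55491 genes in the table, and they were found by gene symbol. They were chosen from a splenic comparison, OVA NP–treated against PBS-treated mice, for their large increases. By log2 fold change, *Slpi* (4.05), *Evc* (3.77), and *Emp2* (3.35) came 1st, 2nd, and 4th among 1059 increased genes that had groups that did not overlap, a mean of at least 1 CPM, and a gene symbol other than a Gm, Rik, or antigen receptor segment symbol. The immunoglobulin gene *Ighg1* (3.73) stood between them, and *Gcsam* (3.24) came 5th. The splenic values are therefore a description without a test, and the values in PPs are where tests were possible.

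*Slpi* encodes secretory leukocyte protease inhibitor, a small secreted protein with WAP domains that blocks neutrophil elastase, cathepsin G, and related serine proteases. It is made by mucosal epithelium and myeloid cells and is also known to dampen NF-κB signaling in macrophages. *Emp2* encodes epithelial membrane protein 2, a tetraspan membrane protein of the PMP22 family that acts on integrins, focal adhesion kinase, and caveolae at the cell surface. *Evc* encodes a membrane protein at the base of the primary cilium. With EVC2, and held there by IQCE and EFCAB7, it passes the Hedgehog signal on from Smoothened to the GLI transcription factors.

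Sensitization of female BALB/cJ mice began at 4 to 6 weeks of age, with 20 μg ovalbumin (OVA) and 1 mg alum given i.p. on days 0 and 14. All groups share this sensitization, so the PBS mice are allergic controls and not naive mice. Treatment on days 28 and 42 was i.v., either 100 μL PBS, 100 μg soluble OVA, or 2.5 mg of nanoparticles that encapsulate OVA (OVA NPs, 40 μg OVA per mg). B cells were collected on day 44, at 10 to 12 weeks of age and before oral food challenge, by magnetic depletion of other cells. There were 3 libraries for each of the 6 combinations of tissue and treatment, 18 in all, each labelled as a biological replicate. Whether a spleen and a PP library came from the same mice is not stated in the sources used here, and neither is pooling of mice.

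Libraries held between 14177253 and 30052297 counts, and 3 counts, taken as the smallest level that could be shown, corresponded to between 0.0998 and 0.212 CPM, a gene's counts scaled by the total of its library. Such limits cover counting error only. The 8 B cell markers, such as *Ms4a1* and *Cd79a*, were detected in every group, with summed levels of 15900 to 19600 CPM in spleen and 10100 to 15800 CPM in PPs. Other cells were present too. The 13 neutrophil genes summed to between 183 and 671 CPM in spleen and between 2.22 and 60.8 CPM in PPs. The 12 intestinal epithelial genes summed to between 295 and 1690 CPM in PPs and between 7.42 and 10.7 CPM in spleen. In such bulk libraries, fewer cells of a type and less RNA per cell cannot be told apart.

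The 3 genes lie on the minus strand of separate chromosomes. In GRCm38, *Slpi* (ENSMUSG00000017002) spans chromosome 2, 164354070 to 164389095, *Emp2* (ENSMUSG00000022505) spans chromosome 16, 10281749 to 10313968, and *Evc* (ENSMUSG00000029122) spans chromosome 5, 37289098 to 37336894. RefSeq ends *Slpi* at 164356507, and the longer span belongs to a transcript of the GENCODE annotation. Because all 3 genes were higher in OVA-treated than in PBS-treated spleen, the RefSeq promoter window of each (GRCm38.p6, minus strand), 250 bases before a transcript start, is shown. The windows are chr2:164356508-164356757 for *Slpi*, chr16:10313969-10314218 for *Emp2*, and chr5:37336882-37337131 for *Evc*. The *Evc* window starts at a transcript start within the RefSeq gene, which reaches to 37336947, so 66 of its bases lie inside the gene span and only the 184 bases beyond it are printed. Capitals mark matches, on either strand, to any of 9 motifs.
Slpi: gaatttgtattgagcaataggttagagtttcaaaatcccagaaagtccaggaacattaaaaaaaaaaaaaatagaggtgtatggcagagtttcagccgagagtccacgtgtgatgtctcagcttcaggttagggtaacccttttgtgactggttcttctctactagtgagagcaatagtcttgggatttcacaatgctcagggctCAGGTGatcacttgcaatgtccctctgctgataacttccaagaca
Emp2: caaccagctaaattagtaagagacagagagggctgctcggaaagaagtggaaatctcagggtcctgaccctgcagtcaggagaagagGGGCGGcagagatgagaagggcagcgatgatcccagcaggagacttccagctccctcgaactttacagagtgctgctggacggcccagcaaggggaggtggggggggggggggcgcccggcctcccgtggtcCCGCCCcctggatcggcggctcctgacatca
Evc: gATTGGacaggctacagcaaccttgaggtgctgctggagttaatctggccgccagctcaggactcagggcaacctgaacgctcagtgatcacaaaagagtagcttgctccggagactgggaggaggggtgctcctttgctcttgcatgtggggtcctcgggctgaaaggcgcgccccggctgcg

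The *Slpi* window was the poorest in CpG. It held 2 CpG dinucleotides and 42.0% G and C, and the *Emp2* and *Evc* windows held 11 CpG each and 62.8% and 60.8% G and C. The median over 32851 RefSeq promoter windows of the same length was 6 CpG and 52.4% G and C. The motifs searched were the TATA box (TATAAA, in 12.4% of all windows), the E2A E-box (CAGGTG, 17.2%), the octamer of immunoglobulin promoters (ATGCAAAT, 1.60%), an NF-κB core (GGGANNNNCC, 17.6%), the STAT motif (TTCNNNGAA, 7.02%), the STAT6 motif (TTCNNNNGAA, 5.85%), the GC box bound by SP1 (GGGCGG, 32.7%), the CCAAT box (CCAAT, 33.8%), and a GLI core (GGGTGGTC, 0.703%). The *Slpi* window held 1 E-box, 45 bases before the start. The *Emp2* window held 2 GC boxes, and the *Evc* window held 1 CCAAT box in the printed part and 1 GC box and 1 NF-κB core in the part within the gene span. The matches did not overlap each other. The TATA box, octamer, STAT, STAT6, and GLI letters were in none of the 3 windows. No motif was in all 3 windows.

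*Slpi* was high in the spleen of both OVA-treated groups and low in the spleen of PBS controls. In splenic PBS libraries it was at 3.22, 1.84, and 4.79 CPM, from 44 to 103 counts. In splenic soluble OVA libraries it was at 78.0, 56.0, and 96.3 CPM. In splenic OVA NP libraries it was at 52.6, 60.8, and 46.3 CPM. Every library of an OVA-treated group was above every PBS library, and the OVA NP and soluble OVA libraries overlapped. In PPs it was at 14.1, 6.77, and 12.5 CPM in PBS libraries. PP soluble OVA libraries were at 10.6, 12.7, and 11.04 CPM. PP OVA NP libraries were at 9.18, 13.1, and 19.2 CPM. The 3 PP groups overlapped, and all 9 PP libraries lay between the splenic PBS libraries and the splenic OVA-treated libraries.

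*Emp2* followed another order. In splenic PBS libraries it was at 0.268, 0.0834, and 0.279 CPM, from 6, 2, and 6 counts, so these levels stood close to the limit of 3 counts. In splenic soluble OVA libraries it was at 5.89, 2.11, and 3.57 CPM, and in splenic OVA NP libraries at 1.78, 3.11, and 1.61 CPM. The libraries of both OVA-treated groups were above the splenic PBS libraries and overlapped each other. In PP PBS libraries *Emp2* was at 38.3, 23.2, and 34.1 CPM, the highest level of the gene in any group. In PP OVA NP libraries it was at 25.7, 33.6, and 31.0 CPM, within the range of the PP PBS libraries. In PP soluble OVA libraries it was at 4.19, 6.84, and 5.40 CPM. All 3 lay below every other PP library and overlapped the splenic soluble OVA libraries.

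*Evc* was low in all groups and lowest in splenic PBS libraries. There it was at 0.357, 0.0834, and 0.140 CPM, from 8, 2, and 3 counts. In splenic soluble OVA libraries it was at 2.06, 1.53, and 2.20 CPM, and in splenic OVA NP libraries at 2.74, 3.63, and 1.73 CPM. In PPs it was at 2.42, 1.90, and 1.98 CPM with PBS, at 1.73, 1.504, and 1.73 CPM with soluble OVA, and at 1.08, 2.24, and 1.81 CPM with OVA NPs. The splenic PBS libraries were below all others, and the OVA-treated splenic libraries overlapped those of PPs.

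**Figure D1:**
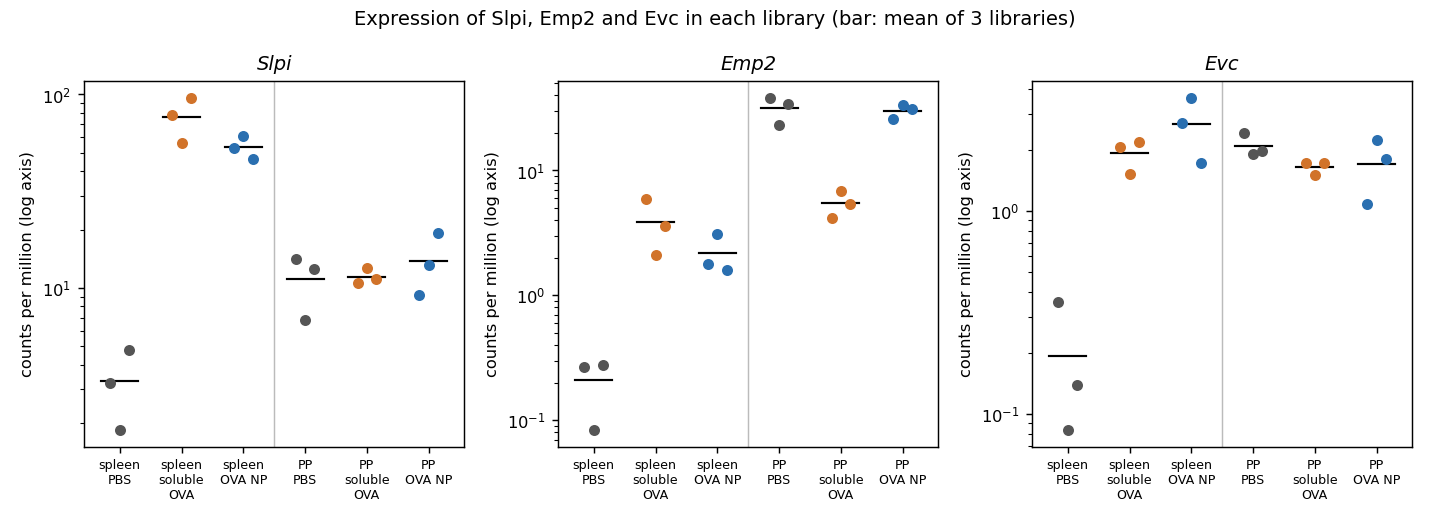
CPM of each gene (log axis) in the 18 libraries, with 1 point per library and a bar at the mean of 3, for spleen on the left and PPs on the right of each panel. The splenic PBS points are the lowest for all 3 genes, the *Slpi* points of OVA-treated spleen are the highest (46.3 to 96.3 CPM), and the *Emp2* points of PP soluble OVA (4.19 to 6.84 CPM) fall below PP PBS and PP OVA NP (23.2 to 38.3 CPM).

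The order of the group means for *Slpi* was splenic soluble OVA (76.8 ± 20.2 CPM, SD, n = 3), splenic OVA NP (53.3 ± 7.28), PP OVA NP (13.8 ± 5.04), PP soluble OVA (11.4 ± 1.13), PP PBS (11.1 ± 3.84), and splenic PBS (3.28 ± 1.48). Only the steps from splenic OVA NP to PP OVA NP and from PP PBS to splenic PBS had no overlap between neighbors. For *Emp2* the order was PP PBS (31.9 ± 7.80 CPM, SD, n = 3), PP OVA NP (30.1 ± 4.02), PP soluble OVA (5.48 ± 1.33), splenic soluble OVA (3.85 ± 1.91), splenic OVA NP (2.17 ± 0.821), and splenic PBS (0.21 ± 0.11). The steps below PP OVA NP and above splenic PBS had no overlap. For *Evc* the order was splenic OVA NP (2.697 ± 0.952 CPM, SD, n = 3), PP PBS (2.10 ± 0.279), splenic soluble OVA (1.93 ± 0.352), PP OVA NP (1.71 ± 0.586), PP soluble OVA (1.65 ± 0.131), and splenic PBS (0.193 ± 0.145). Only the last step had no overlap.

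Per kilobase of exon, *Slpi* stood above the others in every group. In splenic soluble OVA libraries the mean level was 65.1 CPM per kb for *Slpi*, 0.446 for *Emp2*, and 0.251 for *Evc*. In PP PBS libraries it was 9.41 CPM per kb for *Slpi*, 3.69 for *Emp2*, and 0.272 for *Evc*. In splenic PBS libraries it was 2.78 CPM per kb for *Slpi*, 0.0243 for *Emp2*, and 0.0251 for *Evc*. The exon union is 1180 bases for *Slpi*, 8644 for *Emp2*, and 7701 for *Evc*.

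In spleen, the fitted log2 fold changes of OVA NP over PBS that chose the genes had standard errors of 0.30 for *Slpi*, 0.47 for *Emp2*, and 0.48 for *Evc*. Over all genes, 15% of 14200 tested were called in this comparison, where a call is an adjusted p under 0.05 from edgeR's quasi-likelihood test (Benjamini-Hochberg) with an absolute log2 fold change above 0.25. The mean level was 16.2 times that of PBS for *Slpi*, 10.3 times for *Emp2*, and 13.9 times for *Evc*. The last 2 rest on 14 and 13 counts in all 3 PBS libraries together. The ratio of summed counts, each scaled by the library totals, was 10.2 for *Emp2* (95% exact counting interval 5.83 to 19.1) and 13.4 for *Evc* (7.60 to 25.7), and these intervals hold counting error only. Without PBS replicate 1, which held 8 of the 13 *Evc* counts, the log2 fold change of *Evc* was 4.54.

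The soluble OVA comparison in spleen uses the same PBS libraries, so its values are given side by side and not as support. The log2 fold change of soluble OVA over PBS was 4.59 (SE 0.38) for *Slpi*, 4.23 (SE 0.48) for *Emp2*, and 3.32 (SE 0.47) for *Evc*, and 17.2% of 14128 genes were called. Without PBS replicate 1 the value for *Evc* was 4.09. The groups did not overlap for any of the 3 genes. Every soluble OVA library was above every PBS library for 17.7% of all tested genes, and the choice of the 3 genes had already used these PBS libraries. OVA NP over soluble OVA gave −0.54 (SE 0.205) for *Slpi*, −0.88 (SE 0.38) for *Emp2*, and 0.45 (SE 0.31) for *Evc*, with libraries that overlapped for each. In that comparison 0.238% of 13840 genes were called, 33 genes, and the count was 0, 7, or 10 without OVA NP replicate 2, soluble OVA replicate 1, or soluble OVA replicate 3.

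In PPs, *Emp2* fell with soluble OVA and did not pass the test with OVA NPs. With soluble OVA its log2 fold change against PBS was −2.52 (SE 0.24, 95% interval −3.08 to −1.97, adjusted p = 3e-04 from edgeR), and the mean was 5.82 times higher in PBS libraries, with no overlap. It was the only 1 of the 3 genes called in this comparison, in which 27.4% of 15792 genes were called and 13.9% fell. By fold change it ranked 70th among all tested genes on the falling side. Against soluble OVA, *Emp2* was higher with OVA NPs by a log2 fold change of 2.45 (SE 0.185, 95% interval 2.03 to 2.87, adjusted p = 0.000256 from edgeR), ranking 24th on the rising side. Again it was the only 1 of the 3 called, and 30.1% of 15599 genes were called. Both comparisons share the soluble OVA libraries. OVA NP over PBS gave −0.07 (95% interval −0.49 to 0.35, adjusted p = 0.911 from edgeR), so a change beyond 0.49 on the log2 scale in either direction lies outside the interval. No gene was called by edgeR in that comparison (0% of 15798, with 1573 at an unadjusted p under 0.05), and DESeq2 called 150. OVA was given at 100 μg in soluble form and as 2.5 mg NPs with 40 μg OVA per mg.

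Summed levels of some other cell markers were lower in the PP libraries with lower *Emp2*, and the called counts of these lists are to be read against the 13.9% of all tested genes that fell with soluble OVA. The 8 dendritic cell genes summed to between 83.8 and 115 CPM with soluble OVA, between 250 and 366 with PBS, and between 135 and 277 with OVA NPs, with 2 of 8 called lower against PBS and 0 higher. The follicular dendritic and stromal cell list, with 10 of its 11 genes in the table, summed to between 20.9 and 39.6 CPM with soluble OVA, between 59.3 and 138 with PBS, and between 24.6 and 65.4 with OVA NPs, with 3 of 10 called lower. *Ccl19* had a second copy listed at 0 in all PP libraries. The 12 macrophage genes summed to between 112 and 134 CPM with soluble OVA, between 138 and 201 with PBS, and between 176 and 275 with OVA NPs, with 3 of 9 tested called lower. B cell markers summed to between 10100 and 12300 CPM with soluble OVA and between 14400 and 15800 with PBS, with 4 of 8 called lower. *Cd74* was the largest part of both sums, with means of 5131 and 8391 CPM, and *Ms4a1* had means of 1088 and 1050 CPM. The 12 intestinal epithelial genes overlapped among the groups, at 403 to 1690 CPM with soluble OVA and 295 to 1150 with PBS, and 0 of 12 were called against PBS. From soluble OVA to OVA NPs, where *Emp2* was higher, 6 of 10 tested macrophage genes, 5 of 8 dendritic cell genes, and 7 of 10 T cell genes were called higher, and 0, 1, and 1 were called lower, against 13.8% higher and 16.3% lower over all tested genes. The T cell sums overlapped, at 180 to 203 CPM with OVA NPs and 174 to 195 CPM with soluble OVA. *Lck* was most of each sum, with means of 111.6 and 152.9 CPM with OVA NPs and soluble OVA. Every other gene of the T cell list had a higher mean with OVA NPs, such as *Cd3e* (5.045 and 1.51 CPM) and *Il7r* (47.3 and 19.3 CPM). Mitochondrial genes took a larger share of the counts in PP OVA NP libraries (9.08% to 9.80%) than in PP soluble OVA libraries (4.97% to 6.02%) and PP PBS libraries (5.41% to 7.67%). The part of these cells and of RNA quality in the *Emp2* result was not tested.

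*Slpi* and *Evc* did not pass the test in any comparison within PPs. Soluble OVA over PBS gave 0.06 for *Slpi* (95% interval −0.50 to 0.62, adjusted p = 0.884 from edgeR), and without PBS replicate 2, the lowest *Slpi* library, −0.15 (adjusted p = 0.557, with 0.515 to 0.974 over all alternatives). OVA NP over PBS gave 0.33 for *Slpi* (95% interval −0.48 to 1.13, adjusted p = 0.771 from edgeR). OVA NP over soluble OVA gave 0.26 (95% interval −0.32 to 0.84, adjusted p = 0.488 from edgeR) and −0.12 without OVA NP replicate 3, the highest library. For *Evc* soluble OVA over PBS gave −0.33 (95% interval −1.003 to 0.35, adjusted p = 0.457 from edgeR). All 3 soluble OVA libraries were below all 3 PBS libraries, as was so for 25.1% of all tested genes. OVA NP over PBS gave −0.28 for *Evc* (95% interval −1.08 to 0.52, adjusted p = 0.806 from edgeR). OVA NP over soluble OVA gave 0.04 (95% interval −0.76 to 0.83, adjusted p = 0.959 from edgeR), and −0.27, −0.07, and −0.04 without OVA NP replicate 2, OVA NP replicate 3, and soluble OVA replicate 2. Changes within these intervals were not excluded with 3 libraries a group.

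**Figure D2:**
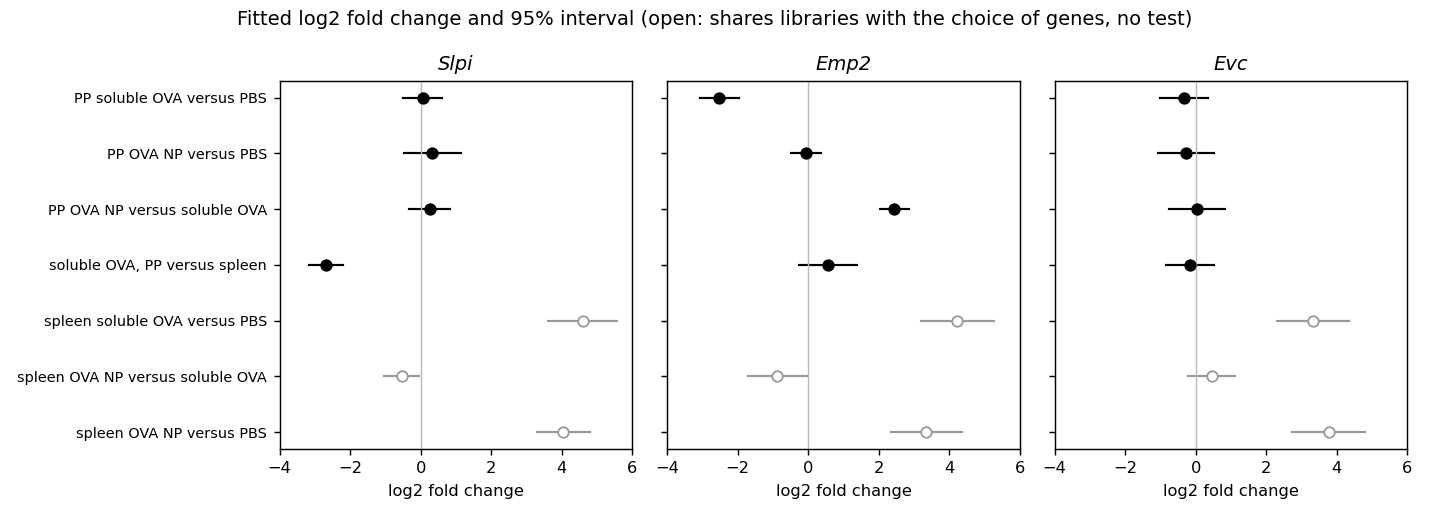
Fitted log2 fold change (points) with its 95% interval (lines) for each gene in 7 comparisons, where filled points are tests and open points share libraries with the choice of the genes. Within PPs *Emp2* is the 1 gene whose interval excludes 0, at −2.52 for soluble OVA against PBS and 2.45 for OVA NP against soluble OVA, and between tissues *Slpi* lies at −2.68.

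Between tissues, the soluble OVA libraries could be compared without the libraries that chose the genes. *Slpi* was lower in PP than in splenic B cells by a log2 fold change of −2.68 (SE 0.205, 95% interval −3.17 to −2.19, adjusted p = 4.8e-05 from edgeR), and its mean was 6.72 times higher in spleen, with no overlap. In this comparison 51.1% of 15415 genes were called, and *Slpi* was the only 1 of the 3. *Emp2* gave 0.55 (95% interval −0.27 to 1.38, adjusted p = 0.229 from edgeR). Without splenic soluble OVA replicate 1, its highest splenic library, it gave 1.02 with an adjusted p of 0.0405 (edgeR; 0.0405 to 0.539 over all alternatives). *Evc* gave −0.16 (95% interval −0.84 to 0.52, adjusted p = 0.685 from edgeR). Neutrophil and epithelial genes moved with tissue. The neutrophil genes summed to between 283 and 523 CPM in spleen and between 2.22 and 3.53 in PPs, with 9 of 11 tested called lower in PPs and 2 higher. Of the 12 epithelial genes 11 were called higher in PPs. Over all tested genes 24.3% were called lower and 26.7% higher. *S100a8*, *Elane*, *Camp*, and *Ngp* were at 0 in all PP soluble OVA libraries. The other neutrophil genes were detected there, such as *Mmp9*, *Csf3r*, and *Retnlg* at means of 1.12, 0.854, and 0.508 CPM. The part of these cells in the differences between tissues was not tested.

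In spleen, neutrophil genes did not follow *Slpi*. The 13 genes summed to between 198 and 526 CPM with PBS, between 283 and 523 with soluble OVA, and between 183 and 671 with OVA NPs. The groups overlapped, and 0 of 10 tested genes were called in either comparison with PBS. Mast cell and basophil genes were higher in sum in both OVA-treated groups of the spleen. The 8 genes summed to between 9.43 and 16.2 CPM with PBS, between 26.1 and 37.1 with soluble OVA, and between 19.7 and 40.6 with OVA NPs, and none was at 0 throughout a splenic group. With soluble OVA 7 of 7 tested were called higher, against 10.5% of all tested genes, and with OVA NPs 3 of 6, against 8.6%. In PPs the same list summed to between 3.46 and 6.76 CPM with PBS and between 8.12 and 17.2 with soluble OVA. With OVA NPs it summed there to between 21.7 and 26.7 CPM, while the *Slpi* libraries of the PP groups overlapped. Plasma cell genes of the spleen were also higher in sum. The 10 genes summed to between 679 and 750 CPM with PBS, between 863 and 971 with soluble OVA, and between 991 and 1010 with OVA NPs. In each comparison with PBS 5 of 9 tested were called higher, and 1 was called lower with soluble OVA and 0 with OVA NPs. Dendritic cell genes were lower in sum. The 8 genes summed to between 151 and 155 CPM with PBS, between 99.8 and 120 with soluble OVA, and between 116 and 129 with OVA NPs. *Ccr7* was most of each sum, with means of 126.5, 86.6, and 97.9 CPM, and *Flt3* had means of 4.46, 8.56, and 7.10 CPM. In each comparison 3 of 8 were called lower, against 6.72% and 6.35% of all tested genes, and 1 was called higher with soluble OVA and 0 with OVA NPs. The 12 macrophage genes summed to between 89 and 214 CPM with PBS, between 35.5 and 78.8 with soluble OVA, and between 40.9 and 153 with OVA NPs, and 2 and 1 of 5 tested were called lower. Erythroid sums overlapped between PBS and either OVA-treated group, with 3 of 6 and 1 of 7 tested called higher. The part of these cells in the level of the 3 genes was not tested.

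Germinal center B cell genes were higher in the same splenic libraries as the 3 genes. The 15 genes of the list, which mark B cells that mutate and select their receptors in follicles, summed to 193.7, 166.5, and 281.1 CPM in the splenic PBS libraries. They summed to 901, 629, and 785 CPM with soluble OVA and to 660, 632, and 559 CPM with OVA NPs. Of those tested, 14 of 14 rose with soluble OVA (median log2 fold change 3.00, against −0.01 over all genes) and 11 of 13 rose with OVA NPs (median 2.51, against 0.001). Over all tested genes 10.5% rose with soluble OVA and 8.6% with OVA NPs. The count of 14 was 8, 9, or 8 without PBS replicate 1, PBS replicate 2, or soluble OVA replicate 1. The count of 11 was between 4 and 6 without OVA NP replicate 1, OVA NP replicate 2, PBS replicate 1, or PBS replicate 2. *Eaf2*, a gene of this list, rose by 2.74 with soluble OVA (adjusted p = 2.19e-06 from edgeR) and by 2.40 with OVA NPs (adjusted p = 8.13e-07). The splenic library with the lowest germinal center sum, PBS replicate 2, also had the lowest *Slpi*, *Emp2*, and *Evc*, the last 2 from 2 counts each. The highest splenic sum, in soluble OVA replicate 1, went with the highest splenic *Emp2* (5.89 CPM) only. *Slpi* was highest in soluble OVA replicate 3 (96.3 CPM), and *Evc* in OVA NP replicate 2 (3.63 CPM).

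In PPs the germinal center genes and *Emp2* moved in opposite directions with soluble OVA, and *Slpi* and *Evc* were not called. The list summed to 2454, 2122, and 2105 CPM with PBS, to 3715, 3661, and 3732 with soluble OVA, and to 1614, 2328, and 2276 with OVA NPs. PBS replicate 1 had the highest sum of its group and the highest *Slpi*, *Emp2*, and *Evc*. OVA NP replicate 1 had the lowest sum of its group and the lowest level of each gene. Soluble OVA replicate 2 had the lowest sum of its group, the lowest *Evc*, and the highest *Slpi* and *Emp2*. With soluble OVA 13 of 14 tested genes rose (median 0.66), against 13.5% of all tested genes, while *Emp2* fell. From soluble OVA to OVA NPs 12 of 14 fell, against 16.3% of all tested genes, and the count was 9 without PP soluble OVA replicate 3. *Slpi* in PPs, at 6.77 to 19.2 CPM, was below its level in OVA-treated spleen, and every PP library had a higher germinal center sum than every splenic library. The part of germinal center B cells in the level of the 3 genes was not tested in either tissue.

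**Figure D3:**
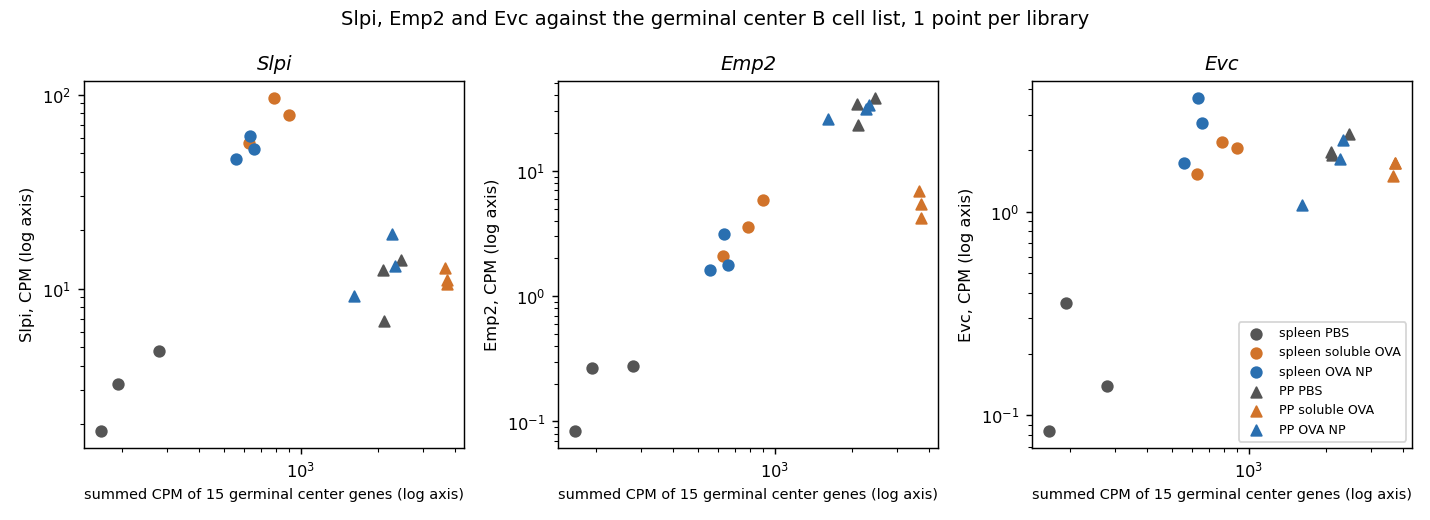
CPM of each gene against the summed CPM of the 15 germinal center genes (both log axes), 1 point per library, circles for spleen and triangles for PPs. Among circles the PBS points are low on both axes, and the PP soluble OVA triangles (3660 to 3730 CPM on the horizontal axis) have the highest germinal center sums and, for *Emp2*, the lowest PP levels.

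Relatives and partners of SLPI moved in other ways. Of the 35 other protease inhibitors, 14 passed the filter in spleen, and 2 rose and 3 fell with soluble OVA and 1 rose and 3 fell with OVA NPs. Over all tested genes 10.5% rose and 6.72% fell with soluble OVA, and 8.6% rose and 6.35% fell with OVA NPs. *Serpinb6b*, an intracellular serpin, rose by 1.14 with soluble OVA (adjusted p = 0.000126 from edgeR) and by 0.65 with OVA NPs (adjusted p = 0.0054). *Cst3*, the cysteine protease inhibitor cystatin C, fell by 0.39 (adjusted p = 0.000903) and 0.30 (adjusted p = 0.00328). *Serpinb1a*, an inhibitor of neutrophil serine proteases, fell by 0.49 with OVA NPs (adjusted p = 0.0027). *Wfdc21*, like *Slpi* a gene with a WAP domain, fell by 1.92 with soluble OVA (adjusted p = 0.0047). In PPs 8 of 18 tested fell with soluble OVA and 0 rose, with a median of −0.82, against 13.9% that fell and a median of −0.02 over all tested genes. *Serpinb9*, which inhibits granzyme B, fell by 1.49 there (adjusted p = 0.000842).

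Mast cell and basophil proteases rose in spleen with OVA, and neutrophil proteases were not called. *Elane*, neutrophil elastase, had means of 47.5, 60.0, and 74.8 CPM in spleen with PBS, soluble OVA, and OVA NPs, and *Ctsg*, cathepsin G, had means of 15.2, 31.5, and 29.9 CPM. Of 7 tested proteases, 3 rose with soluble OVA and 3 with OVA NPs, against 10.5% and 8.6% of all tested genes. *Mcpt8*, a basophil protease, rose by 2.31 (adjusted p = 0.000193 from edgeR) and 2.13 (adjusted p = 0.0105). *Mcpt4*, a mast cell chymase, rose by 2.90 (adjusted p = 0.000415) and 2.699 (adjusted p = 0.000872). *Prss34* and *Mcpt8*, like *Mcpt4*, are also on the mast cell and basophil list. In PPs *Elane* and *Prss34* were at 0 in all PBS and soluble OVA libraries.

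Among the proteins SLPI is known to bind, *Plscr1*, a phospholipid scramblase, rose in spleen by 0.45 with soluble OVA (adjusted p = 0.00863 from edgeR) and by 0.38 with OVA NPs (adjusted p = 0.0264). It was the only 1 of 5 tested that was called in spleen. Over all tested genes 17.2% and 15% were called in these comparisons, so this count says nothing particular of these proteins. Of 6 tested in PPs, 1 rose and 3 fell with soluble OVA, against 13.5% and 13.9% of all tested genes. In PPs with soluble OVA *Anxa2*, annexin A2, rose by 1.19 (adjusted p = 0.000132), and *Grn*, the progranulin gene, fell by 0.41 (adjusted p = 0.0142). *Nfkb1* and *Rela*, subunits of NF-κB, also fell there, by 0.45 (adjusted p = 0.00223) and 0.41 (adjusted p = 0.00686).

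No relative of *Emp2* rose in spleen. Of the 6 other genes of its family 2 were tested there, and *Emp3* fell by 0.38 with soluble OVA (adjusted p = 0.0164 from edgeR), with no call for OVA NPs. In PPs *Emp3* fell by 1.04 with soluble OVA (adjusted p = 0.000533), the only 1 of 4 tested family members called. Over all tested genes 27.4% were called there. *Emp1*, at means of 6.95 CPM with PBS and 11.4 CPM with soluble OVA in PPs, was not called, and neither was *Pmp22* at 2.14 and 3.11 CPM. Of 12 integrin, focal adhesion, and caveola genes, 10 were tested in spleen, where *Itgb1*, the β1 integrin, rose by 0.28 with OVA NPs (adjusted p = 0.00641) and 0 were called with soluble OVA. This 1 of 10 was near the 8.6% of all tested genes that rose with OVA NPs. In PPs with soluble OVA 2 of 11 rose and 2 fell, near the 13.5% and 13.9% of all tested genes, so the count says nothing particular of these partners. *Ptk2*, focal adhesion kinase, rose by 0.42 (adjusted p = 0.0105), and *Vcl*, vinculin, fell by 0.65 (adjusted p = 0.0127).

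The other genes of the EvC complex did not pass the test in spleen. *Evc2* had 0 to 4 counts in splenic libraries and 2 to 15 counts in PP libraries, and did not pass the filter in spleen. *Iqce* had splenic means of 25.7, 28.5, and 25.9 CPM with PBS, soluble OVA, and OVA NPs, and *Efcab7* had means of 2.55, 2.67, and 2.46 CPM. In PPs *Efcab7* rose by 1.01 with soluble OVA (adjusted p = 0.0114 from edgeR). Of 24 Hedgehog pathway genes 12 were tested in each splenic comparison with PBS, and *Disp1*, which releases the ligand, was the only 1 called, falling by 0.31 with soluble OVA (adjusted p = 0.03) and by 0.29 with OVA NPs (adjusted p = 0.0364). The receptor gene *Ptch1* had splenic means between 31.5 and 34.5 CPM, *Smo* between 10.1 and 13.3 CPM, and the target *Gli1* between 0.373 and 0.668 CPM, with none called. *Shh* was at 0 in all splenic libraries. Of 25 primary cilium genes, 1 rose and 2 fell with soluble OVA and 1 rose and 3 fell with OVA NPs in spleen, near the 17.2% and 15% of all tested genes called in these comparisons.

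Neighboring genes were also examined. *Evc* overlaps *Crmp1* on the opposite strand (chromosome 5, 37241940 to 37292133), and whether the counting used strand is not given in the sources used here, so reads from the shared end cannot be told apart. *Crmp1* fell in spleen, by 0.51 with soluble OVA (adjusted p = 0.0483 from edgeR) and by 0.58 with OVA NPs (adjusted p = 0.0125), the opposite direction to *Evc*. *Evc2* starts 1605 bases away on the other strand. Beside *Slpi*, *Matn4* (18 to 90 counts) lies 298 bases beyond the long *Slpi* span, and the microRNA gene *Mir7678* inside *Slpi* and the neighbor *Svs5* had 0 counts throughout. Beside *Emp2*, *Atf7ip2* had 0 to 18 counts and *Tekt5* 0 to 9.

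Across libraries the 3 genes were alike in spleen and less so in PPs. Over the 9 splenic libraries, Pearson's r of log2 CPM was 0.975 for *Slpi* and *Emp2*, 0.950 for *Slpi* and *Evc*, and 0.931 for *Emp2* and *Evc*. Over the 9 PP libraries r was 0.178, 0.344, and 0.281 for the same pairs, and over all 18 it was 0.232, 0.737, and 0.710. These libraries share tissue and treatment, the splenic ones fall into PBS and OVA-treated clusters, and the genes were chosen for that split, so r is a description only.

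Among 11998 other genes, those most like each gene over all 18 libraries were listed by Pearson's r of log2 CPM. For *Slpi* they were *Lifr*, the receptor for leukemia inhibitory factor (r = 0.947), *St7* (0.859), *Apip* (0.830), *Calr*, the chaperone calreticulin (0.822), and *Mcts1* (0.819). *Lifr* had splenic means of 5.21, 70.9, and 43.4 CPM with PBS, soluble OVA, and OVA NPs and PP means of 13.4, 11.1, and 21.9 CPM, the same order by group in spleen as *Slpi*. It was the 1 gene with r above 0.9 to *Slpi*. Within the 9 PP libraries r for these 5 genes was between 0.089 and 0.373. Under Spearman's rho 3 of the 5 stayed on the list.

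For *Emp2* the genes were *Nrgn*, neurogranin (r = 0.966), *Ddx43*, a DEAD-box helicase (0.954), *Cacna1h*, a T-type calcium channel subunit (0.953), *Etl4* (0.953), and *Tspyl5* (0.945), and 40 genes had r above 0.9. *Ddx43* had means of 7.70, 1.59, and 7.97 CPM in PPs with PBS, soluble OVA, and OVA NPs and of 0.465, 1.88, and 1.41 CPM in spleen. Within PPs r was between 0.709 and 0.950, and within spleen between 0.901 and 0.949. Under Spearman's rho 2 of the 5 stayed on the list.

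For *Evc* the genes were *Hapln1*, a hyaluronan link protein (r = 0.834), *Xbp1*, a transcription factor of the secretory program (0.811), *Gcsam*, a germinal center signaling adaptor (0.805), *Eloc* (0.798), and *Hspa5*, the chaperone BiP (0.798). No gene had r above 0.9. Within PPs r was between −0.449 and 0.408, and under Spearman's rho 0 of the 5 stayed on the list, so the *Evc* list rests on the measure used.

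**Figure D4:**
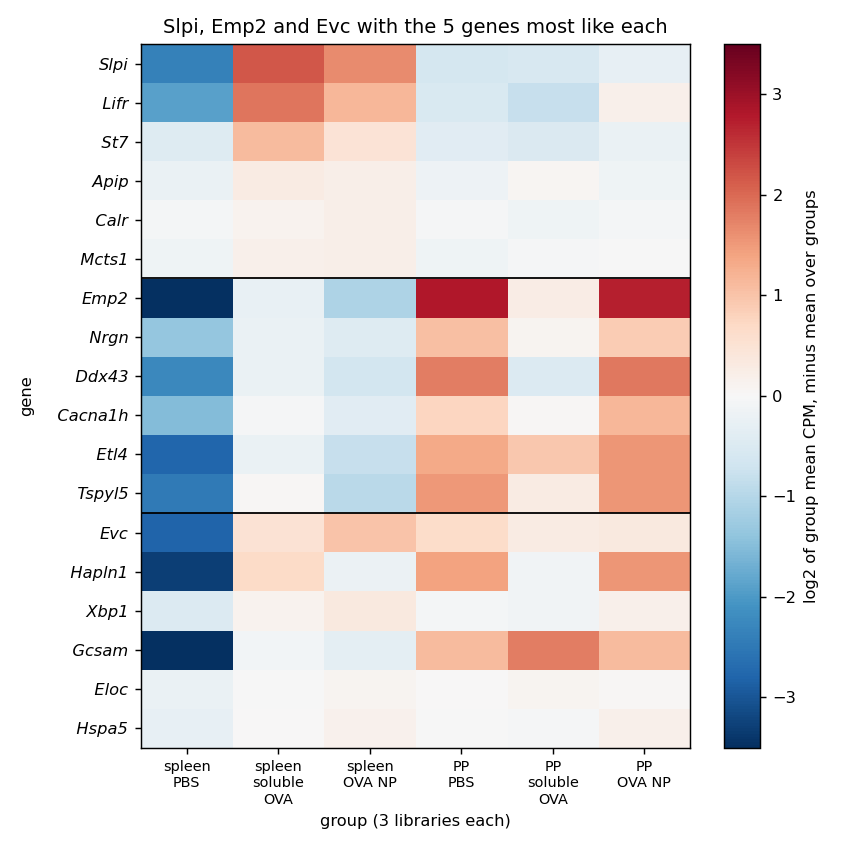
Group mean CPM on the log2 scale, minus the gene's mean over the 6 groups (color), for *Slpi*, *Emp2*, and *Evc* and the 5 genes most like each, in rows by gene and columns by group. The splenic PBS column is the lowest for *Emp2* (−4.45), *Slpi* (−2.37), and *Evc* (−2.80), and *Emp2* and *Ddx43* are lower in PP soluble OVA than in the other PP columns.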

How the data were processed

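RNA of magnetically enriched B cells was sequenced after poly(A) selection. Per the labels and methods, the authors used Cutadapt 2.3 for trimming, STAR 2.7.8a for alignment to GRCm38, and RSEM 1.3.3 for counting. The deposited values are these expected counts, all whole numbers and not normalized. BALB/cJ reads were thus aligned to the genome of another strain. CPM were computed from library totals.

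Each comparison was fitted to its 6 libraries with edgeR 4.0.16 in R 4.3.3 (filterByExpr with a minimum count of 10 and minimum total of 15, TMM, robust quasi-likelihood test, Benjamini-Hochberg adjustment over all tested genes). Calls needed a log2 fold change beyond 0.25 in either direction and an adjusted p under 0.05. DESeq2 1.42.0 was an alternative, and the steps were tested on simulated data. The 3 genes and the gene lists were chosen with earlier results of these data known. Named genes are the 3, the 5 most like each (TMM log2 CPM, prior count 2, mean of at least 1 CPM), neighbors, set partners, and up to 6 called genes per list by adjusted p, some of which are not reported here. Promoter sequences came from RefSeq GRCm38.p6, with 3 of 3 genes matched. Alternatives were other filters, scalings, and fits, a replicate block, and leaving out each library. The labels call the replicates biological and do not say whether equal numbers mark the same mouse, so p-values measure the spread between these samples, and the comparisons used no block.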

Additional observations from a re-analysis of the deposited data

Results flagged for a closer look

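With soluble OVA against PBS, *Emp2* moved in opposite directions in the tissues. Every splenic soluble OVA library was above every splenic PBS library (log2 fold change 4.23), and every PP soluble OVA library was below every PP PBS library (log2 fold change −2.52). The libraries of *Evc* had the same order, at 3.32 in spleen and −0.33 in PPs (95% interval −1.003 to 0.35), where it did not pass the test. In PPs every soluble OVA library was below every PBS library for 25.1% of all tested genes. The difference between tissues was not tested, because the genes were chosen on the splenic PBS libraries. Groups of 3 libraries were not searched for outlying samples.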

How the results depend on the processing

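Of 269 values of the 3 genes under the alternatives, 257 kept their direction and their side of the threshold, or, without a test, moved by less than the spread between replicates. Each of the 3 called values (*Emp2* in both PP comparisons with soluble OVA and *Slpi* between tissues) was called under its 13 alternatives, at log2 fold changes of −2.68 to −2.34, 2.29 to 2.63, and −2.87 to −2.50. Requiring at least 10 counts in every library gave no value for *Emp2* and *Evc* in the splenic comparisons with PBS. When 1 library was left out, the range for *Emp2* was 0.26 to 1.02 between tissues and −0.24 to 0.09 for OVA NP against PBS in PPs. For *Slpi* in PPs it was −0.15 to 0.28 for soluble OVA against PBS and −0.12 to 0.43 for OVA NP against soluble OVA. For *Evc* it was −0.27 to 0.23 for OVA NP against soluble OVA in PPs, 3.40 to 4.54 for OVA NP against PBS in spleen, and 2.95 to 4.09 for soluble OVA against PBS in spleen. *Evc* for OVA NP against soluble OVA in PPs was also −0.002 with at least 10 counts in every library. The cause of these changes beyond the loss of a library was not tested.

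The number of genes called for OVA NP against PBS in PPs, 0 by edgeR, was 150 with DESeq2, 1 in a fit of all 9 PP libraries, and 146 without a filter, and between 0 and 8 when 1 library was left out (2 without OVA NP replicate 3, 8 without PBS replicate 3). For OVA NP against soluble OVA in spleen, 33 genes became 83 with DESeq2 and 230 without a filter, and between 0 and 40 when 1 library was left out. In no comparison did same-numbered libraries correlate above 0.1 in every pair. Comparisons between treatments hold different mice, so they cannot show shared mice. Only the soluble OVA comparison between tissues could, and r there was 0.11, 0.084, and −0.077. PBS and OVA NP libraries were not compared between tissues in this way, so whether equal numbers mark the same mice stays unknown. With a replicate block, 3119 genes were called for OVA NP against soluble OVA in PPs, against 4697 without it, and *Evc* there was −0.018. The block changed the side of the threshold for none of the 3 genes.

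The list of genes most like *Evc* shared 3 of 5 genes when the prior count was 0.5. Leaving out each library for the germinal center list was added after the data were seen, and its 1 gene that fell for OVA NP against soluble OVA in spleen was between 0 and 4. Depth limited *Emp2* and *Evc* in splenic PBS libraries, where 2 to 8 counts stood behind each level.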
